A study of Mus musculus with 14 samples.

Results

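Triglyceride is built in the liver from glycerol 3-phosphate by adding fatty acids one after the other. The 9 genes described here encode enzymes of that route and were chosen by name: the phosphatidate phosphatases Lpin1, Lpin2 and Lpin3, the glycerol 3-phosphate acyltransferase Gpam, the lysophosphatidate acyltransferases Agpat2 and Agpat3, the diacylglycerol acyltransferases Dgat1 and Dgat2, and the monoacylglycerol acyltransferase Mogat1. All 9 were measured, among 22180 genes on the arrays, each by 1 probe set, the brightest of its gene. The rule that lists them uses no measured value, although earlier results of these data were known when it was written.

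Glycerol 3-phosphate acyltransferases add the first fatty acid, lysophosphatidate acyltransferases the next, and lipins then remove the phosphate to leave diacylglycerol, which DGAT enzymes turn into triglyceride. Monoacylglycerol acyltransferases reach diacylglycerol by a separate route that is most active in the intestine. In mice, lipin 1 also acts in the nucleus of liver cells with PGC-1 alpha on genes of fatty acid oxidation, and Lpin1 is known to respond to fasting and to glucocorticoids in liver.

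The series addresses glucose handling and fat storage in the liver after 6 h without sleep. The first group of livers came from 7 male C57BL/6J mice, an inbred strain, labelled as deprived of sleep (mice 1, 2, 3, 5, 6, 10 and 13). The other livers came from 7 male C57BL/6J controls (mice 4, 7, 8, 9, 11, 12 and 14). The labels name no transgene or drug, give no age, time of day or feeding state, and do not say which of the methods tried for keeping mice awake (cage changing, a water platform or gentle handling) preceded these arrays. RNA from flash-frozen liver was labelled with biotin and hybridised to Affymetrix whole-transcript arrays, which read each gene through a probe set. Values are log2 expression made by RMA, so a difference of 1 is a doubling, and levels of different probe sets cannot be set against each other.

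The arrays were alike in scale, with medians over all probe sets between 3.443 and 3.491 and pairwise correlations between 0.984 and 0.9903. The tissue label was checked on the hepatocyte markers, whose mean level over 8 genes lay between 11.78 and 11.90 in sleep-deprived and between 11.74 and 11.85 in control mice. Among them, Ass1 read far below this mean, at 5.65 in sleep-deprived and 5.45 in control mice. Of these 8, Apoa1 (0.12, limma, adjusted p = 0.0277) and Cps1 (0.11, adjusted p = 0.0417) rose on the log2 scale. Fat and muscle are tissues rich in lipin 1. Of the 5 adipocyte markers measured 0 changed, and their mean level ran from 3.49 to 3.79 in sleep-deprived and from 3.44 to 3.76 in control mice. Of the 5 skeletal muscle markers 0 changed (3.74 to 3.84 in sleep-deprived, 3.58 to 3.93 in control mice). Of these markers, Adipoq, Lep, Retn, Plin1, Ckm, Myh4 and Tnnt3 averaged below the median over all genes. That median ran from 3.95 to 4.04 across the arrays. How far such dim probe sets can show a change was not tested. Among markers of sinusoidal endothelium, Lyve1 (1.13) and Oit3 (0.46) of 5 rose on the log2 scale, while Kdr was at -0.18 with all 7 sleep-deprived mice below the control mean (limma, adjusted p = 0.114) and Stab2 (0.044) and Clec4g (0.12) did not pass either. The mean level of this list was 7.57 to 8.10 in sleep-deprived and 7.32 to 7.72 in control mice. Sox9 (0.56), 1 of 4 bile duct markers, rose as well, with a list mean of 4.00 to 4.68 in sleep-deprived and 4.00 to 4.18 in control mice, and Cd79a, 1 of 4 leukocyte markers, fell by 0.38 (3.28 to 3.69 in sleep-deprived, 3.42 to 3.90 in control mice). Cd79a too averaged below the median over all genes. Of 5 Kupffer cell and 5 stellate cell markers 0 changed. The part of these other cells in the results below was not tested. In whole liver, fewer cells of a type and less RNA per cell cannot be told apart.

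After sleep deprivation 4 of the 9 genes changed. Lpin1 was almost tripled (2.97-fold), Lpin2 was 1.38-fold and Agpat3 1.17-fold higher, while Gpam fell by 18.6%. Thus 3 of 9 genes rose and 1 fell, and the other 5 (Lpin3, Agpat2, Dgat1, Dgat2 and Mogat1) did not pass the test. Calls are from limma, with an adjusted p under 0.05 over all 22180 genes. Over all genes 8.50% were called, 3.88% as higher and 4.62% as lower. The median log2 difference of the 9 genes was 0.01, beside -0.0048 over all genes. A full separation of the groups was seen in 2 of the 9, Lpin1 and Agpat3, beside 3.13% of all genes. Leaving out any 1 of the 14 mice kept the number called among the 9 at 4.

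**Figure D1:**
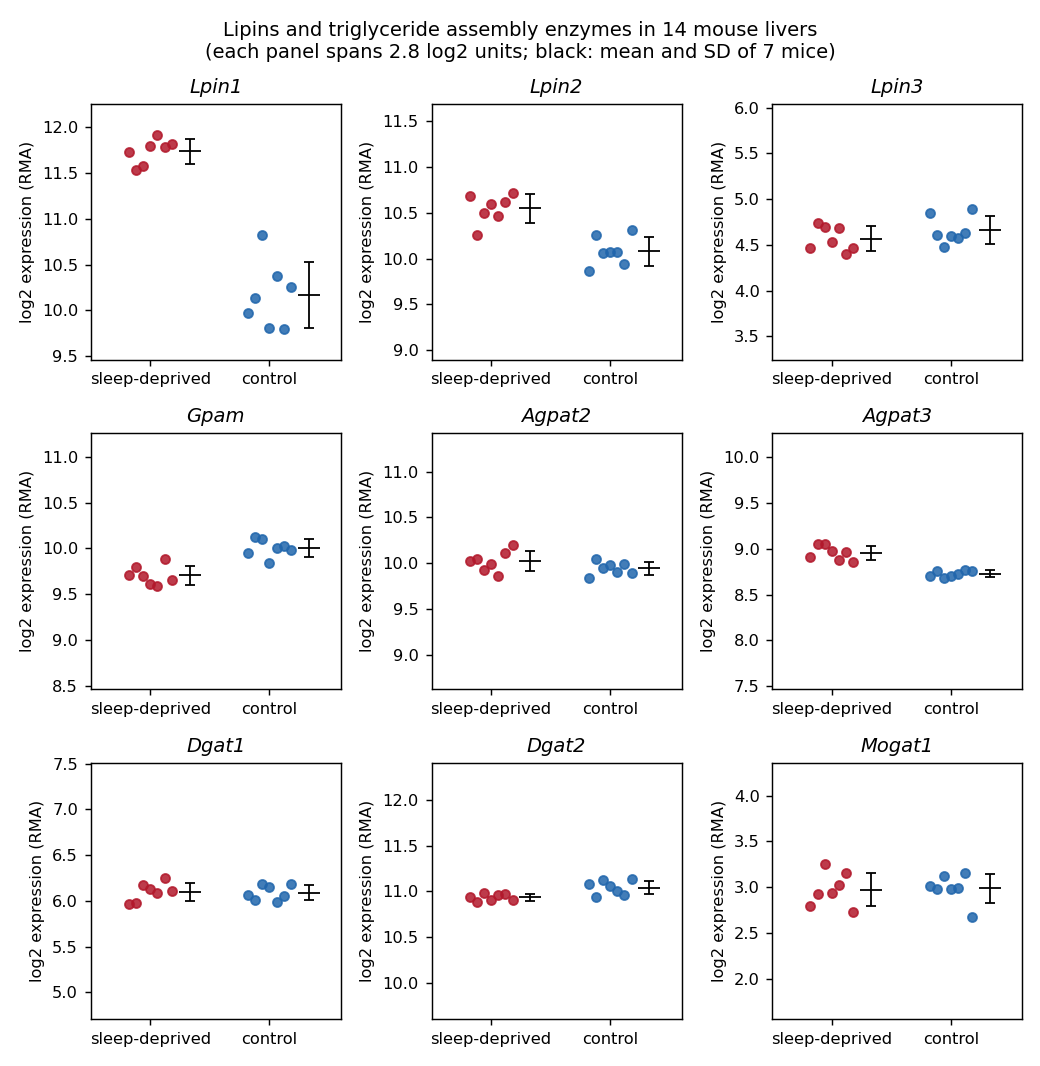
Log2 expression of the 9 genes in each of the 14 livers, with 7 sleep-deprived mice (red, left) and 7 controls (blue, right) in every panel. Each point is 1 mouse, the black bars are mean and SD, and all panels span the same range on the log2 scale. The groups lie apart in Lpin1 and Agpat3, and overlap in the other 7 genes.

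Lpin1 (probe set 17280062) encodes lipin 1, which converts phosphatidate to diacylglycerol. Its log2 level ran from 11.53 over a median of 11.79 to 11.92 in sleep-deprived mice, and from 9.80 over 10.14 to 10.82 in controls. The lowest sleep-deprived mouse (mouse 2) stood 0.71 above the highest control (mouse 8), so that the groups did not overlap. The means were 11.74 ± 0.14 in sleep-deprived and 10.17 ± 0.36 in control mice (SD, n = 7 each). Lpin1 thus rose by 1.57 ± 0.12 on the log2 scale (difference and its SE from limma, as for the other genes), with a 95% interval of 1.32 to 1.82, or 2.50-fold to 3.53-fold (limma, adjusted p = 1.15e-07). This was rank 9 of all 22180 genes by the size of the rise. Leaving out 1 mouse at a time gave 1.51 to 1.68, the highest value without control mouse 8.

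Lpin2 (probe set 17339434) encodes lipin 2, another phosphatidate phosphatase, whose loss in mice is known to be partly covered by lipin 1. On the log2 scale its level ran from 10.26 over a median of 10.60 to 10.72 in sleep-deprived mice, and from 9.87 over 10.07 to 10.31 in controls. Of the 7 sleep-deprived mice 6 lay above every control. Mouse 2, lowest of its group in Lpin1 as well, lay below 2 controls, mouse 14 and, by less than the rounding, mouse 7. Lpin2 rose by 0.47 ± 0.073 on the log2 scale, with a 95% interval of 0.31 to 0.62 (limma, adjusted p = 0.000268). Another probe set of Lpin2 (17339460) pointed the same way without passing. Its log2 level averaged 7.96 ± 0.37 in sleep-deprived and 7.45 ± 0.39 in control mice (SD, n = 7 each), a log2 difference of 0.51 ± 0.16 (limma over all probe sets, adjusted p = 0.0674).

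Lpin3 (probe set 17379077), the remaining lipin gene, did not pass. In sleep-deprived mice its log2 level ran from 4.40 over a median of 4.53 to 4.74, and from 4.48 over 4.61 to 4.89 in controls. The groups overlapped over most of their range. Lpin3 differed by -0.092 ± 0.081 on the log2 scale, and the 95% interval of -0.26 to 0.08 does not hold a rise of the size seen in Lpin2 (limma, adjusted p = 0.622). Its probe set read not far above the median over all genes, which was 3.95 to 4.04 across the arrays. How far this low level limits a measured change was not tested.

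**Figure D2:**
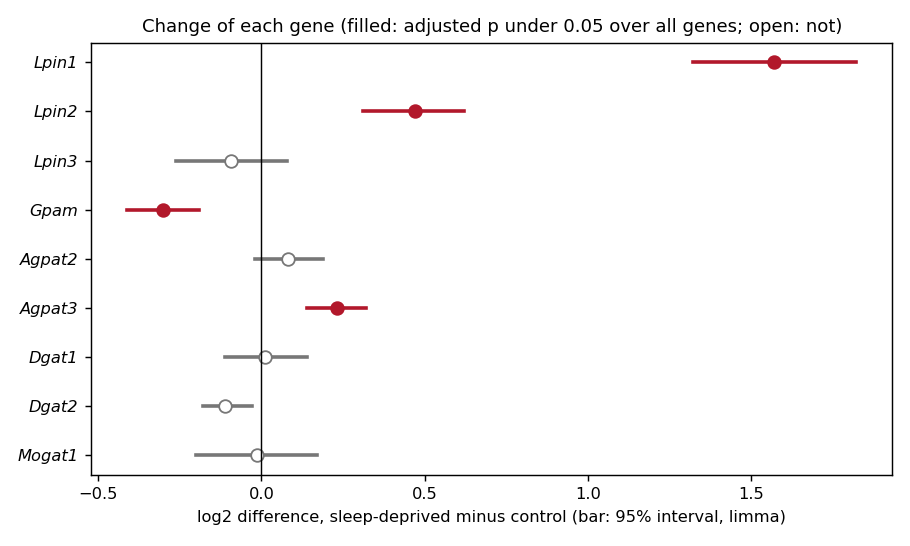
Log2 difference, sleep-deprived minus control, of the 9 genes with the 95% interval from limma. Filled red points passed an adjusted p under 0.05 over all genes and open grey points did not. Lpin1 stands at 1.57, Lpin2 at 0.47, Agpat3 at 0.23 and Gpam at -0.30.

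The lipins were compared with each other through the log2 difference of a pair of genes within each mouse. Each of the 3 lipin pairs moved unequally. The rise of Lpin1 exceeded that of Lpin2 by 1.10 ± 0.14 on the log2 scale, with all 7 sleep-deprived mice (1.05 to 1.46) above all controls (-0.26 to 0.76). The exact permutation test over 3432 assignments of the mice, two-sided, gave p = 0.000583, the smallest these assignments can give, and an adjusted p of 0.00146 over the 5 pairs of isoenzymes compared. Against Lpin3, the change of Lpin1 was larger by 1.66 ± 0.19 (exact permutation test, adjusted p = 0.00146) and that of Lpin2 by 0.56 ± 0.13 (exact permutation test, adjusted p = 0.00291). The pairs with Lpin3 carry the limit given for its probe set.

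**Figure D3:**
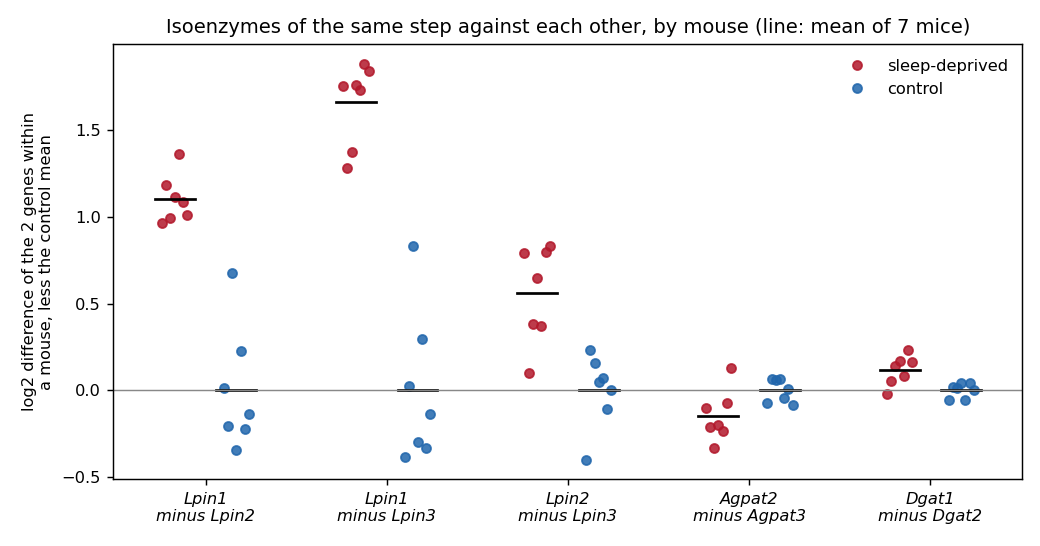
Log2 difference of the genes of a pair within each mouse, less the control mean, for 5 pairs of isoenzymes. Red points are the 7 sleep-deprived mice, blue points the 7 controls, and lines are means. The sleep-deprived mice lie 1.10 higher for Lpin1 minus Lpin2, 1.66 higher for Lpin1 minus Lpin3 and 0.56 higher for Lpin2 minus Lpin3, and the other pairs differ by -0.14 and 0.12.

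Promoter windows from RefSeq (GRCm38.p6), from 250 bases before to 50 after a listed start, are shown for Lpin1 and Lpin2, which rose, and for Gpam, which fell, choosing windows that hold a match. RefSeq's table held 11 windows for 7 of the 9 genes. Capitals mark the letters of 6 short motifs searched on both strands: the E-box CACGTG, the cAMP response element TGACGTCA, the glucocorticoid receptor half-site AGAACA, the nuclear receptor half-site AGGTCA, the NF-Y box CCAAT and the sterol regulatory element TCACNCCAC. No matches overlapped in these windows. Each runs 5′ to 3′ along the gene's strand.
Lpin1, chr12:16610917-16611216, minus strand: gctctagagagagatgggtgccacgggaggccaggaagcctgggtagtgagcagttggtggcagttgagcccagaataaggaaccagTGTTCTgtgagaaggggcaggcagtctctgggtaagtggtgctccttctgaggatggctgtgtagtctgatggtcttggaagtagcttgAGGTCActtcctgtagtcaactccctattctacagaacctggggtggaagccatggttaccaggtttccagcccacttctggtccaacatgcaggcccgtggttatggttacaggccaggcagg
Lpin2, start 1, chr17:71183282-71183581, plus strand: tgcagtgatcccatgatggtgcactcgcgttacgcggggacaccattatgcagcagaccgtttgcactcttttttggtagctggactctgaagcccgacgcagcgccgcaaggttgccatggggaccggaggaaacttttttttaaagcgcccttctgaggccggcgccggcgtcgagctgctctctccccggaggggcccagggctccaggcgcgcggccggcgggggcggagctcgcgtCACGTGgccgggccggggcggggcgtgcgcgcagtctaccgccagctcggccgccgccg
Lpin2, start 3, chr17:71204404-71204703, plus strand: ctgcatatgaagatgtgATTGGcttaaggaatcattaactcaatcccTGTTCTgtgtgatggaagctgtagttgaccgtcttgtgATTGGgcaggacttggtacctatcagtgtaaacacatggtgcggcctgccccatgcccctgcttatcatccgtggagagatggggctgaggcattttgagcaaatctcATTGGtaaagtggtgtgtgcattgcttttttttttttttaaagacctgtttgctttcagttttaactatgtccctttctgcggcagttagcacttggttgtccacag
Gpam, start 1, chr19:55127189-55127488, minus strand: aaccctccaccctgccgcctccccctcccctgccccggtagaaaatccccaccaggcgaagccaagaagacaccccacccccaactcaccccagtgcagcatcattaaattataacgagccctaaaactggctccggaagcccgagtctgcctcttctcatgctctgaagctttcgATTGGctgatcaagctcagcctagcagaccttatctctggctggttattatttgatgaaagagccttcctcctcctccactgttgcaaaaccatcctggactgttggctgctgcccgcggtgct

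The Lpin1 window held the receptor half-site, read as TGTTCT on the opposite strand, at -163 from the start and AGGTCA at -74. At start 3 of Lpin2 the window held TGTTCT at -203 and the NF-Y box, read as ATTGG, at -233, -165 and -57, while that of start 1 held the E-box at -9. The half-site AGAACA was in 19.0% of all 32851 windows of this length and also in a window of Lpin3, which did not pass the test. That Lpin3 window held the E-box as well, at position 23 from the start. The window of Mogat1, which did not pass either, held an NF-Y box at position 25. AGGTCA was in 16.3%, CCAAT in 37.4%, CACGTG in 7.15%, TGACGTCA in 1.79% and TCACNCCAC in 1.24% of them. The Gpam window shown held 1 NF-Y box at -74, and its start 2, not shown, held AGGTCA at -196. The windows of Agpat3, which rose as well, and of start 2 of Lpin2 held 0 matches. These are matches of letters only.

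Gpam (probe set 17365728) encodes the mitochondrial glycerol 3-phosphate acyltransferase GPAT1, which starts the route and is a known target of SREBP-1c. Its log2 level ran from 9.59 over a median of 9.70 to 9.88 in sleep-deprived mice, and from 9.84 over 10.00 to 10.13 in controls. Of the sleep-deprived mice 6 lay below every control, and mouse 10 lay just above the lowest control, mouse 9. Gpam fell, with a log2 difference of -0.30 ± 0.052 and a 95% interval of -0.41 to -0.19 (limma, adjusted p = 0.000845). Srebf1, which encodes SREBP-1, had a log2 level of 6.82 ± 0.34 in sleep-deprived and 8.16 ± 0.21 in control mice (SD, n = 7 each). A link between the levels of Srebf1 and Gpam was not tested.

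Agpat3 (probe set 17242474) encodes a lysophosphatidate acyltransferase of the endoplasmic reticulum. Its log2 level ran from 8.86 over a median of 8.97 to 9.05 in sleep-deprived mice, and from 8.68 over 8.73 to 8.77 in controls. The groups did not overlap, although the gap between them was only 0.09. Agpat3 rose by 0.23 ± 0.043 on the log2 scale, with a 95% interval of 0.14 to 0.32 (limma, adjusted p = 0.00154).

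Agpat2 (probe set 17383104), whose loss causes lipodystrophy in humans and mice, had overlapping groups. The log2 level of Agpat2 ran from 9.86 over a median of 10.02 to 10.20 in sleep-deprived mice, and from 9.84 over 9.95 to 10.04 in controls. The log2 difference was 0.083 ± 0.050, with a 95% interval of -0.02 to 0.19 (limma, adjusted p = 0.418). The change of Agpat2 lay below that of Agpat3 by 0.14 ± 0.06 (exact permutation test, two-sided, difference -0.14, adjusted p = 0.0420 over the 5 pairs). That call was lost in 9 of the 14 repeats that left out 1 mouse (sleep-deprived mice 1, 2, 3, 5 and 6 and control mice 7, 8, 9 and 12), with adjusted p up to 0.0804.

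Dgat2 (probe set 17493632) and Dgat1 (probe set 17318502) encode unrelated enzymes that catalyse the last step. The log2 level of Dgat2 ran from 10.88 over a median of 10.94 to 10.98 in sleep-deprived mice, and from 10.94 over 11.06 to 11.13 in controls. All 7 sleep-deprived mice lay below the control mean, but the groups overlapped at their edges. The log2 difference was -0.11 ± 0.038, with a 95% interval of -0.18 to -0.03, and did not pass over all genes (limma, unadjusted p = 0.0119, adjusted p = 0.101).

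Dgat1 had a log2 level from 5.97 over a median of 6.11 to 6.25 in sleep-deprived mice, and from 5.99 over 6.07 to 6.18 in controls. The ranges nearly coincided. The log2 difference was 0.010 ± 0.060, with a 95% interval of -0.11 to 0.14 (limma, adjusted p = 0.960). The changes of the DGAT genes differed from each other by 0.12 ± 0.04, Dgat1 minus Dgat2 (exact permutation test, two-sided, adjusted p = 0.0138 over the 5 pairs). Neither gene passed over all genes by itself. How far the unlike levels of their probe sets bear on this difference was not tested.

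Mogat1 (probe set 17214672), an enzyme that rises in fatty livers of mice, did not pass, and its probe set read below the median gene of every array. The log2 level of Mogat1 ran from 2.73 over a median of 2.94 to 3.25 in sleep-deprived mice, and from 2.67 over 2.99 to 3.16 in controls. The log2 difference was -0.014 ± 0.090, with a 95% interval of -0.20 to 0.17 (limma, adjusted p = 0.963).

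No correlation of Lpin1 with another of these genes within a group passed the test. Of 16 correlations of Lpin1 with another member, 8 genes in each group of 7 mice, 0 passed after adjustment and 1 had an unadjusted p under 0.05 (exact permutation tests). That one was with Agpat3 in the sleep-deprived mice, at Pearson's r = -0.84 (exact p = 0.0228, adjusted p = 0.365) and Spearman's rho = -0.82 (exact p = 0.0341, adjusted p = 0.546). Without the 2 mice farthest from the median of Lpin1, r was -0.40 over the 5 left. Between Lpin1 and Lpin2, r was 0.55 in the sleep-deprived mice (exact p = 0.204) and 0.29 in the controls (exact p = 0.539). Without the 2 farthest mice of each group these values were -0.76 in the sleep-deprived mice, the opposite sign, and 0.44 in the controls, so no relation can be read from them.

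The genes most like Lpin1 over the 14 arrays, of 17422 searched, were Gin1 (Pearson's r 0.968), Fkbp5 (0.954), which binds the glucocorticoid receptor complex, Fbxo31 (0.954), Ppp1r3c (0.951), which targets protein phosphatase 1 to glycogen, and Ncbp1 (0.950), of the nuclear cap-binding complex. This measure holds the difference between the groups, and all 5 genes rose themselves. With each group's mean subtracted, the nearest were Gnb3 (0.881), Ciapin1 (0.859), the mitochondrial fusion protein gene Mfn2 (0.858), Ms4a15 (0.854) and the lactate dehydrogenase gene Ldhb (0.832), none of which passed the test between the groups.

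For Lpin2 the nearest genes over the 14 arrays were Sec23a (0.974), a coat protein of vesicles that leave the endoplasmic reticulum, Wac (0.968), Serinc3 (0.968), the receptor for autophagy of the endoplasmic reticulum Retreg1 (0.965) and the ferritin receptor Ncoa4 (0.961). With group means subtracted they were Usp53 (0.931), the glutamate dehydrogenase gene Glud1 (0.931), Serinc3 (0.925), Sec23a (0.922) and Atp11b (0.922). Sec23a and Serinc3 stood in both sets. These correlations, for Lpin1 and Lpin2 alike, are descriptions over arrays that share their processing. They are the highest of 17422 genes searched and were not tested, so no relation can be read from them.

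Neighbouring genes were described through lists. Of 51 genes listed for 8 neighbouring steps and for regulators of Lpin1, 44 were measured and the others were not analysed here. Among the 44, 4 were higher and 7 lower, together 25.0% beside 8.50% over all genes, with a median log2 difference of 0.02. The share over all genes includes dim ones, and the lists were chosen with earlier results of these data known. The difference between these shares was not tested.

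Among the genes analysed that supply the substrates, those that passed were lower. Gk, Acsl1 and Acsl3 were listed but had no probe set with 1 gene symbol under the names searched. They were not analysed here, and whether other probe sets of the arrays read them was not examined. Of 4 genes of glycerol 3-phosphate supply, 0 rose and 2 fell, the glycerol channel Aqp9 at -0.33 ± 0.065 (limma, adjusted p = 0.00242) and Gpd1l, a homologue of glycerol 3-phosphate dehydrogenase, at -0.23 ± 0.068 (adjusted p = 0.0421). With 1 mouse left out, Gpd1l was not called in 11 of 14 fits, all but those without sleep-deprived mouse 10 or 13 or control mouse 12, with adjusted p up to 0.0947. Gpd1, the cytosolic dehydrogenase that makes glycerol 3-phosphate, pointed up at 0.24 ± 0.077 (limma, adjusted p = 0.0614). Gpd1 passed as higher among the brighter genes alone (limma, adjusted p = 0.0373) and with quantile normalization again (0.0276). It also passed without sleep-deprived mouse 5 (0.0242) or control mouse 7 (0.0304) or 14 (0.0310). Of the 9 alternative settings 7 left Gpd1 uncalled. With its probe sets averaged, Gpd1 was at 0.19 (limma, adjusted p = 0.144). Of 5 genes that activate fatty acids, 0 rose and 1 fell, the very long-chain and bile acid CoA synthetase Slc27a5 (-0.22 ± 0.040, limma, adjusted p = 0.00115). Its log2 level was 10.23 ± 0.06 in sleep-deprived and 10.45 ± 0.06 in control mice (SD, n = 7 each), without overlap. The groups nearly touched, as the highest sleep-deprived mouse and the lowest control both read 10.36 when rounded. Acsl4, Acsl5 and Slc27a2 did not pass, with log2 differences between -0.16 and 0.10.

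Among the other glycerol 3-phosphate acyltransferases 1 of 3 rose and 0 fell. Gpat4, the form of the endoplasmic reticulum, was at 9.80 ± 0.23 in sleep-deprived and 9.50 ± 0.18 in control mice (SD, n = 7 each), a log2 difference of 0.30 ± 0.091 (limma, adjusted p = 0.0451) opposite in sign to that of Gpam. Gpat4 was no longer called in 11 of 14 fits with 1 mouse fewer, all but those without sleep-deprived mouse 2 or control mouse 4 or 9, with adjusted p up to 0.102. Gpat3 was at 0.24 ± 0.11 (limma, adjusted p = 0.248) and Gpat2 at 0.019 ± 0.076 (adjusted p = 0.938). Gpat2 read below the median over all genes, at 3.35 in sleep-deprived and 3.34 in control mice.

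Of 5 further genes listed with the lysophosphatidate acyltransferases 1 rose and 1 fell. Abhd5, known chiefly as the coactivator of the lipase Pnpla2, was at 6.99 ± 0.16 in sleep-deprived and 6.59 ± 0.05 in control mice (SD, n = 7 each), a rise of 0.40 ± 0.067 without overlap (limma, adjusted p = 0.000514). Lclat1, which remodels cardiolipin, was lower in all 7 sleep-deprived mice than in any control (-0.27 ± 0.055, limma, adjusted p = 0.00370). Agpat5 and Agpat1 were at 0.23 ± 0.086 and 0.079 ± 0.066 and did not pass (limma, adjusted p = 0.116 and 0.601).

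Of 5 genes for phosphatases outside the lipin family and for regulators of lipins, 0 passed as higher and 1 as lower, the lipid phosphate phosphatase Plpp2 (-0.32 ± 0.084, limma, adjusted p = 0.0217, 0.0524 without sleep-deprived mouse 5 and 0.0750 with the sample number as a covariate). Plpp1 was at 0.24 ± 0.093, Plpp3 at -0.13 ± 0.041 and Ctdnep1, the phosphatase that activates lipins by removing their phosphates, at 0.21 ± 0.072 (limma, adjusted p = 0.129, 0.0610 and 0.0862). All 7 sleep-deprived mice lay above the control mean in Plpp1 and in Ctdnep1. Ctdnep1 passed among the brighter genes alone (limma, adjusted p = 0.0469) and without sleep-deprived mouse 3 (0.0496) or control mouse 8 (0.0371), and Plpp1 without control mouse 14 (0.0470). Among 9 enzymes that draw on phosphatidate or return diacylglycerol to it, 1 rose and 0 fell, the diacylglycerol kinase Dgkh (0.39 ± 0.11, limma, adjusted p = 0.0265). That call was lost without sleep-deprived mouse 1, 10 or 13 or control mouse 8 or 9 (adjusted p up to 0.0634). Dgka (0.14), Cds2 (-0.044) and Dgke (-0.058) did not pass. Dgke read below the median over all genes, at 3.39 in sleep-deprived and 3.45 in control mice.

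**Figure D4:**
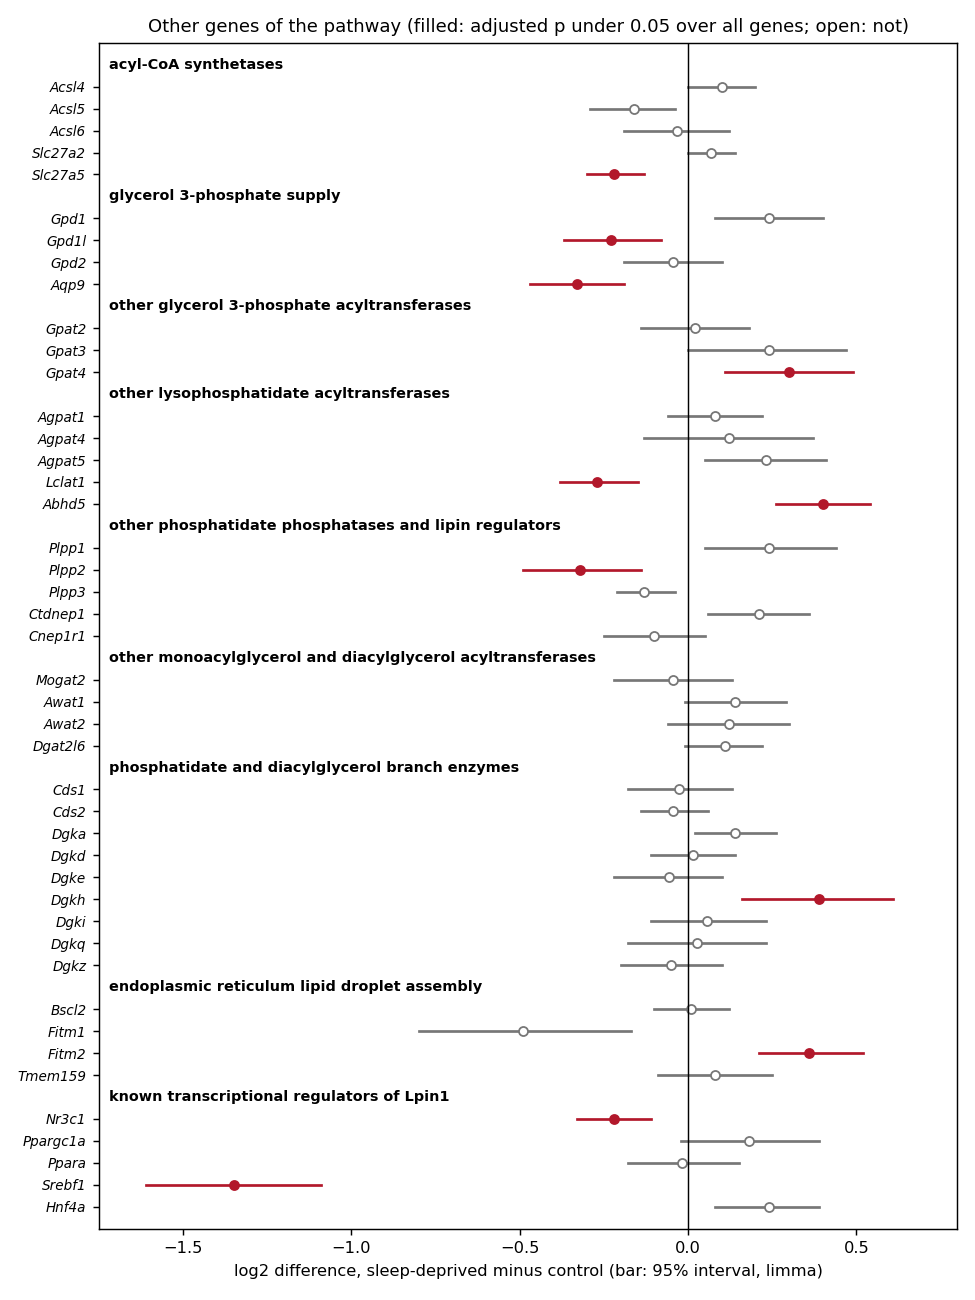
Log2 difference, sleep-deprived minus control, of the 44 other genes measured, grouped by step, with 95% intervals from limma. Filled red points passed an adjusted p under 0.05 over all genes (4 higher, 7 lower) and open grey points did not. Srebf1 stands farthest from 0, at -1.35.

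Of 4 further acyltransferases of the DGAT2 family (Mogat2, Awat1, Awat2 and Dgat2l6), 0 passed in either direction. Their log2 differences lay between -0.045 and 0.14, and 0 of them had an unadjusted p under 0.05 in limma. All read low, with group means from 1.97 (Dgat2l6, controls) to 4.00 (Mogat2, controls). The median over all genes was 3.95 to 4.04 across the arrays. Of 4 genes for droplet assembly at the endoplasmic reticulum 1 rose and 0 fell. Fitm2, which binds triglyceride and promotes droplet budding, was at 8.38 ± 0.16 in sleep-deprived and 8.01 ± 0.13 in control mice (SD, n = 7 each), a rise of 0.36 ± 0.073 (limma, adjusted p = 0.00256). Its paralogue Fitm1 stood at 8.93 ± 0.48 in sleep-deprived and 9.42 ± 0.13 in control mice and did not pass (-0.49 ± 0.15, limma, adjusted p = 0.0528). Fitm1 did pass as lower among the brighter genes alone (limma, adjusted p = 0.0342) and with the sample number as a covariate (0.0225). Without sleep-deprived mouse 2, 3, 10 or 13 it passed as well (limma, adjusted p from 0.0247 to 0.0477). Of the 9 alternative settings 7 left Fitm1 uncalled, with an adjusted p up to 0.13, under robust eBayes (limma). With its probe sets averaged, Fitm1 was at only -0.29 and did not pass. Seipin (Bscl2) was at 0.0095 ± 0.051 and its partner, listed as Tmem159, at 0.081 ± 0.083.

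Of 5 known regulators of Lpin1 transcription 0 rose and 2 fell. Nr3c1, the glucocorticoid receptor, was at 7.68 ± 0.11 in sleep-deprived and 7.90 ± 0.06 in control mice (SD, n = 7 each), lower by the test (-0.22 ± 0.055, limma, adjusted p = 0.0136) and without overlap. Srebf1 fell too, with a log2 difference of -1.35 ± 0.13 (limma, adjusted p = 1.15e-06) and no overlap. Ppargc1a, which encodes PGC-1 alpha, was at 0.18 ± 0.098 (limma, adjusted p = 0.334) and Hnf4a at 0.24 ± 0.076 (adjusted p = 0.0604). Hnf4a passed as higher among the brighter genes alone (limma, adjusted p = 0.0372), with quantile normalization again (0.0259) and with the sample number as a covariate (0.0239). It also passed without sleep-deprived mouse 2 (limma, adjusted p = 0.00891) or 3 (0.0356).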

How the data were processed

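Liver RNA of 14 mice was measured on Affymetrix whole-transcript arrays from 100 ng of total RNA each, per the labels' protocols. For each probe set the authors deposited a log2 value from RMA, per the submitters' processing notes, its version and filters being not given in the sources used here. There were 41345 probe sets, of which 23521 had 1 gene symbol in the platform annotation, 1814 several and 16010 none. Symbols were checked by Entrez gene ID (23328 matched). The brightest probe set over the 14 arrays stood for each gene, giving 22180 genes, with no filter on dim ones.

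Groups came from the sample titles. Each numbered liver was taken as 1 mouse, and where samples are not separate animals p-values measure only the spread between samples. No batch is named. Sleep-deprived minus control was fitted with limma 3.58.1 (lmFit, eBayes with trend, R 4.3.3) across all genes and adjusted by Benjamini-Hochberg, with a threshold of 0.05. Isoenzyme pairs and correlations used exact permutation tests. The steps were tested on simulated data. The number of arrays, 7 per group, limits the precision.

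The members and gene lists were chosen with earlier results of these data known. The text names all 9 members, up to 4 genes per list with the smallest p, and the 5 genes most like Lpin1 and Lpin2 by each measure, leaving out predicted and clone names. Alternatives were eBayes without trend, robust eBayes, array weights, brighter genes alone, averaged or separate probe sets, median centring, repeated quantile normalization, the sample number as a covariate, a log2 minimum of 0.5 and leaving out each mouse.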

Additional observations from a re-analysis of the deposited data

Results flagged for a closer look

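A mouse stood apart from the others of its group, by the gap to its nearest neighbour as a share of the group's range (over 0.568 for 7 mice), in 10 of 88 combinations of gene and group. Chance flags about 1 in 20. Of the 9 genes of the route this concerned Mogat1, where control mouse 14 had a log2 level of 2.67 and the next control 2.98. Without the sleep-deprived or control mouse in question no call of a member was gained or lost.

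Among the other pathway genes the mice concerned were as follows. Sleep-deprived mouse 2 was lowest in Gpat4 (9.35, next 9.73) and in Mogat2 (3.60, next 3.91). Sleep-deprived mouse 3 was lowest in Nr3c1 (7.43, next 7.68) and in Gpd1l (5.92, next 6.16). Sleep-deprived mouse 13 was highest in Agpat5 (5.44, next 5.18) and lowest in Aqp9 (9.38, next 9.63). Control mouse 7 was highest in Fitm2 (8.28, next 8.05) and in Plpp2 (7.47, next 7.12), and control mouse 14 was lowest in Dgke (3.16, next 3.42).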

How the results depend on the processing

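The calls of Lpin1, Lpin2, Agpat3 and Gpam and their directions were kept under all 9 alternative settings and all 14 fits that left out 1 mouse. Over the settings Lpin1 ranged from 1.56 to 1.61, Lpin2 from 0.47 to 0.54, Agpat3 from 0.22 to 0.25 and Gpam from -0.30 to -0.26 on the log2 scale. Lpin3, Agpat2 and Dgat2 stayed uncalled with the same sign, Dgat2 with an adjusted p down to 0.0522. Dgat1 (-0.015 to 0.033) and Mogat1 (-0.068 to 0.026) changed sign between fits that left out 1 mouse. Mogat1 has no value among the brighter genes alone. With a minimum log2 difference of 0.5, 391 genes and 1 member (Lpin1) were called. Without 1 mouse, 1541 to 1893 genes were called and the change of Agpat2 minus Agpat3 lay between -0.19 and -0.11. The other 4 isoenzyme pairs kept their calls.

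Of 799 values of 35 other named genes 731 kept side and sign, 35 lost and 24 gained a call and 9 changed sign, all in uncalled genes. These were Bscl2 (-0.0041 with quantile normalization again, -0.014 to 0.026 without 1 mouse), Gpat2 (-0.036 with the sample number as a covariate, -0.025 to 0.050 without 1 mouse) and Mogat2 (-0.075 to 0.015 without 1 mouse). Among called genes, Gpat4 lost its call without the trend (adjusted p = 0.0739), with robust eBayes (0.0565) and with the covariate (0.0934), Gpd1l without the trend (0.0503), with median centring (0.0800) and with the covariate (0.144), and Plpp2 with the covariate (0.0750), all by limma. Calls were gained by Gpd1, Ctdnep1, Plpp1, Fitm1 and Hnf4a in the fits named above. Plpp3 gained one among the brighter genes alone (limma, adjusted p = 0.0303), with array weights (0.0424) and without control mouse 4 (0.0404). Agpat5 gained one with the covariate (limma, adjusted p = 0.0377). The causes were not tested. No paired analysis was possible because the labels name no pairing. Background was not measured in the values used here, so how far it limits dim probe sets was not tested.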
